A study of Rattus norvegicus with 3 samples.

Results

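Transducin is the heterotrimeric G protein that carries the light signal from an opsin to phosphodiesterase 6 in photoreceptors. It is built from an alpha, a beta and a gamma subunit, and rods and cones use different genes for each. The genes described here are the rod forms Gnat1 (alpha), Gnb1 (beta) and Gngt1 (gamma), the cone forms Gnat2, Gnb3 and Gngt2, and Gnb5, a divergent beta subunit that pairs with RGS proteins instead of a gamma subunit. They were chosen by symbol. All 7 were found, each as 1 entry, among 16629 genes and unnamed regions of the deposited tables.

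The study holds 3 poly(A) RNA libraries, 1 per group, from adult Sprague-Dawley rats on a lighting cycle of 14 h light to 10 h dark. The pineal day library was made from glands collected at zeitgeber time 7, that is 7 h into the light phase. The pineal night library was made from glands collected at zeitgeber time 19, in the dark phase. The mixed-tissue library, also from zeitgeber time 7, combines equal amounts of RNA from 15 tissues: cortex, cerebellum, midbrain, hypothalamus, retina, hindbrain, spinal cord, heart, skeletal muscle, liver, small intestine, lung, kidney, pituitary and adrenal gland. The labels name no allele, no agent and no number of animals per library. With 1 library per group there is no spread between replicates, so differences are given by size and without a test.

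The mammalian pineal gland is not directly light-sensitive, but its main cell, the pinealocyte, shares an origin with retinal photoreceptors and keeps part of their gene programme. In the dark-adapted photoreceptor the alpha subunit holds GDP and sits with the beta-gamma dimer. Light-activated opsin makes alpha take up GTP and leave the dimer, and the RGS9 and Gnb5 complex speeds the return to the resting state.

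Levels are in FPKM, the number of sequenced fragments per kilobase of a transcript and scaled to the depth of the library, so genes of different length can be set side by side. Comparisons between libraries use log2 ratios of FPKM + 1 and leave out genes below 1 FPKM in both libraries concerned. A gene is counted as higher or lower at 2-fold or more between night and day, and at 4-fold or more between gland and mixed tissues, on this scale. The depth of the libraries was estimated from the smallest values of olfactory receptor gene models, at 8.75 fragments per kb and FPKM by day, 5.29 by night and 9.49 in the mixed tissues. By day, 7 of 8 pinealocyte markers exceeded the mixed tissues by 4-fold or more, against 2.29% of all genes and regions compared. They include the melatonin enzyme gene Asmt (395 FPKM and 1.45). Rod markers were split: the 6 found summed to 533 FPKM in the gland by day, 387 by night and 354 in the mixed tissues, which contain retina. Nrl, Pde6a and Pde6b summed to 4.15 FPKM by day, 3.61 by night and 161 in the mixed tissues, with Nrl at 0 by night. Rom1, a structural protein of the outer segment, was at 442, 313 and 108 FPKM, and Reep6 at 74.2, 60.3 and 55.6.

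In the pineal gland the cone alpha and beta forms were far above their rod counterparts, while both gamma forms were abundant. Gnat2, the cone alpha subunit, stood at 777 FPKM by day, 618 by night and 6.35 in the mixed tissues. Gnat1, the rod alpha subunit, stood at 1.59, 0.888 and 355 FPKM. The order of the 2 alpha genes is therefore reversed between gland and mixed tissues. Gnat2 made up 99.8% of the pair's summed FPKM by day and 99.9% by night, against 1.76% in the mixed tissues. In bulk RNA, fewer cells of a type and less RNA per cell cannot be told apart.

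**Figure D1:**
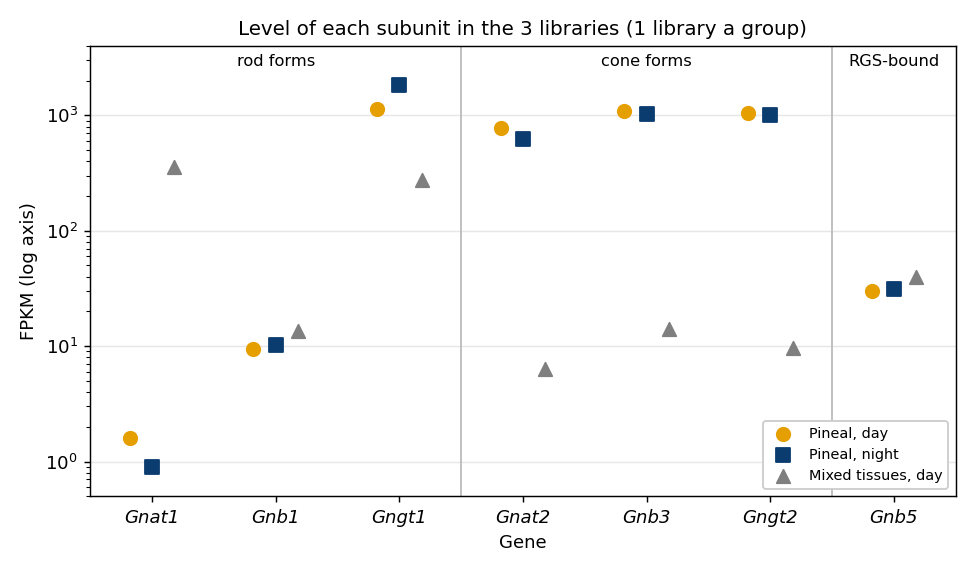
FPKM (log axis) of each rod form, cone form and Gnb5 in the pineal day (circles), pineal night (squares) and mixed-tissue (triangles) libraries, 1 point per library. The 3 cone forms lie between 618 and 1088 FPKM in the gland and between 6.35 and 14.2 in the mixed tissues, and Gngt1 is the rod form that is high in the gland.

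Gnat1 at 1.59 and 0.888 FPKM is near the limit of what these libraries resolve. For a transcript of 1 kb, 95% exact Poisson bounds, which cover counting error alone, run from 0.871 to 2.68 FPKM by day and from 0.276 to 2.13 by night. These bounds overlap, which is not a test of a difference, and the night depth rests on 4 receptor models. No difference in Gnat1 between day and night is therefore read from these values. Pde6a, a catalytic subunit of rod phosphodiesterase, was at 0.985 and 1.43 FPKM in the gland, against 63.7 in the mixed tissues, so it and Gnat1 were both low in the gland and high where retina was included.

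The beta pair followed the alpha pair in the gland. Gnb3, the cone beta subunit, which is also found in ON bipolar cells of the retina, stood at 1088 FPKM by day, 1027 by night and 14.2 in the mixed tissues. Gnb1, the beta subunit of rods that is also used by many other cell types, stood at 9.39, 10.2 and 13.6 FPKM. Gnb3 held 99.1% of the pair by day and 99.0% by night. In the mixed tissues the pair was nearly even, with 51.1% for Gnb3 and a log2 ratio of rod over cone form of -0.06. The values of Gnb1 are uncertain: the RefSeq reference names 2 Gnb1 pseudogenes, and how reads with several matches in the genome were treated is not stated in the labels.

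The gamma pair was the exception. Gngt2, the cone gamma subunit, was at 1053 FPKM by day, 1017 by night and 9.71 in the mixed tissues. Gngt1, the rod gamma subunit, was at 1128 FPKM by day, 1828 by night and 273 in the mixed tissues. Within the gland the rod and cone gamma forms were thus of the same order, with Gngt1 1.07 times Gngt2 by day and 1.80 times by night, while in the mixed tissues Gngt1 was 28.1 times Gngt2. Expressed as the log2 ratio of rod over cone form, the gamma pair stood at 0.10 by day, 0.85 by night and 4.68 in the mixed tissues. The alpha pair stood at -8.23, -8.36 and 5.60, and the beta pair at -6.71, -6.52 and -0.06. In the gland the cone form was the higher in the alpha and beta classes and the rod form in the gamma class, by day and by night. The gamma gap of 1.07 times by day is small. How FPKM of such short transcripts was corrected for fragment length was not tested, so the gamma order by day is not settled. The 6 alternative settings tried treat both forms of a pair alike within a library, so they could not change which form is higher.

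**Figure D2:**
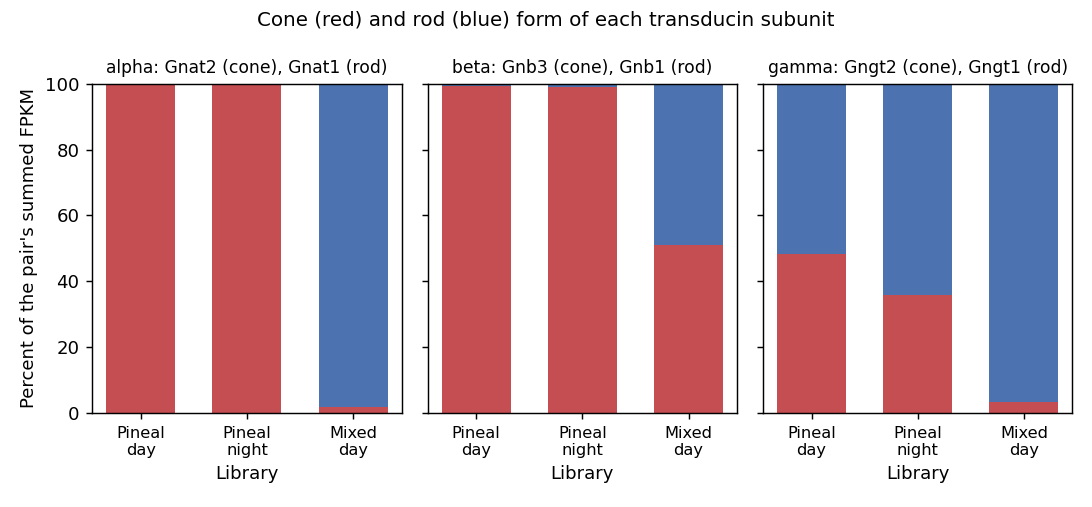
Percent of the summed FPKM of each rod and cone pair held by the cone form (red, from the bottom) and the rod form (blue), for the alpha, beta and gamma subunits in the 3 libraries. The cone form holds 99.0% to 99.9% of the alpha and beta pairs in the gland, and 48.3% (day) and 35.7% (night) of the gamma pair.

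Gngt1 and Gnat1 differed in opposite directions between gland and mixed tissues. There were 707 Gngt1 FPKM for each FPKM of Gnat1 in the gland by day and 0.768 in the mixed tissues. Its level in the gland was 4.13 times that in the mixed tissues by day and 6.70 times by night. Gnat1, its alpha partner in rods, was 223 times lower in the gland by day than in the mixed tissues. The 707 and the 223 are ratios of plain FPKM that rest on 1.59 FPKM of Gnat1. That value is near the limit, so the size of both is uncertain. On the scale of FPKM + 1, the log2 ratio of Gnat1 was -7.10. The mixed library combines equal amounts of RNA from 15 tissues including retina, so a level there is not the level in retina. How the gland compares with retina alone was not measured.

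The sequence upstream of Gngt1 is shown because Gngt1 is the rod form that is abundant in the gland and the member with the largest night over day ratio. RefSeq promoter windows on build GRCr8 matched 3 of the 7 genes, Gngt1, Gnb1 and Gnb5, and the 250 bases before each start were searched. The search took 2 motifs, which do not overlap each other, on both strands: TAATCC, the core bound by the photoreceptor and pineal homeobox factors Crx and Otx2, and TGACG, the cAMP response element core. The Gngt1 window, chr4:32960695-32960944 on the plus strand, is printed 5′ to 3′ with the match to TAATCC, which lies on the minus strand and reads GGATTA here, in capitals.
Gngt1: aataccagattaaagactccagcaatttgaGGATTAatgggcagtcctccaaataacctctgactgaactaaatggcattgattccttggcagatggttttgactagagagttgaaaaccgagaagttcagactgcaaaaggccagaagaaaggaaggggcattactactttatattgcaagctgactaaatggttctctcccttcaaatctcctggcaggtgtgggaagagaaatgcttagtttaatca

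The match covers positions -220 to -215 before the start. TAATCC was present in 6.34% of 33469 windows of the same length, and it had 0 matches upstream of Gnb1 and Gnb5. TGACG, present in 18.2% of windows, had 0 matches upstream of Gngt1 and Gnb1 and 1 match upstream of Gnb5, on the minus strand at positions -31 to -27. A match describes the letters in a window and does not show binding. Crx and Otx2 were themselves measured at 237 and 189 FPKM in the gland by day, 421 and 337 by night, and 31.5 and 19.7 in the mixed tissues.

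Night and day differed little for most of the genes. Of the 7 subunits, 0 passed 2-fold in favour of night and 0 in favour of day, against a background of 4.18% higher and 2.11% lower among 9826 genes and regions compared. The log2 ratio of night over day was 0.70 for Gngt1, 0.10 for Gnb1 and 0.06 for Gnb5. It was -0.05 for Gngt2, -0.08 for Gnb3, -0.33 for Gnat2 and -0.46 for Gnat1. The 2 values nearest 0, those of Gngt2 and Gnb3, became 0.05 and 0.02 when the libraries were scaled by the median ratio, so they have no settled direction.

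The pineal values of Gngt1, 1128 and 1828 FPKM, give a ratio of 1.62 that stays under the 2-fold limit. Of the genes compared, 6.76% had a higher night over day ratio. Among the 28 genes with at least 500 FPKM in 1 of the pineal libraries, Gngt1 had the 3rd highest ratio. It was the 3rd most abundant gene by day and the 2nd by night. Gnb3 was the 4th and Gngt2 the 5th most abundant gene in both pineal libraries. Gnat2 moved the other way, from the 11th place by day to the 18th by night, and its ratio was the 26th of the same 28.

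Other transcripts of the gland also differed between these 2 libraries, and their part in the Gngt1 difference was not tested. Aanat and Bsx, 2 of 8 pinealocyte markers, were past 2-fold on the night side, and the list's median log2 ratio was 0.83 against -0.11 over all genes. Of all genes and regions compared, 4.18% were higher and 2.11% lower by night. Fibroblast markers (5 of 5 within 2-fold) summed to 229 FPKM by day and 166 by night, astrocyte markers (4 of 4 within) to 106 and 75.7, microglial markers (5 of 5 within) to 47.1 and 42.6, and endothelial markers to 15.8 and 13.5, with Cldn5 at 0 in both. Of the 5 oligodendrocyte markers, 3 could be compared and Cnp was lower, with sums of 30.0 and 16.1 FPKM. Neuron markers were split and summed to 687 and 630 FPKM, nearly all from Slc17a7 (582 and 499) and Syt1 (105 and 131). Gad1 (0.115 and 0.0443) and Nefl (0.0688 and 0.144) were near 0. Scaling by the median ratio moves night over day by 0.11 on the log2 scale and puts Gngt1 at 0.80.

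Against the mixed tissues by day, 4 of the 7 subunits were higher in the gland by 4-fold or more, 1 was lower by that much and 2 were within 4-fold. The background was 2.29% higher and 13.2% lower among 11934 genes and regions. The log2 ratios were 6.72 for Gnat2, 6.62 for Gngt2 and 6.16 for Gnb3. These were the 5th, 6th and 10th highest ratios of all genes and regions compared. Gngt1 had a log2 ratio of 2.04, just past the 4-fold limit. Gnat1 had a log2 ratio of -7.10, the 40th lowest of all. Gnb1 at -0.49 and Gnb5 at -0.41 lay near the median of all genes, -0.27. As the mixed library combines 15 tissues, none of these ratios sets the gland against retina alone.

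The night library gave 4 higher and 1 lower against the same mixed library, beside a background of 3.09% higher and 14.4% lower. This comparison differs in time of day as well as tissue, and it shares its libraries with the other comparisons. Its log2 ratios were 6.40 for Gnat2, 6.57 for Gngt2, 6.08 for Gnb3, 2.74 for Gngt1, -0.38 for Gnb1, -0.35 for Gnb5 and -7.56 for Gnat1.

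**Figure D3:**
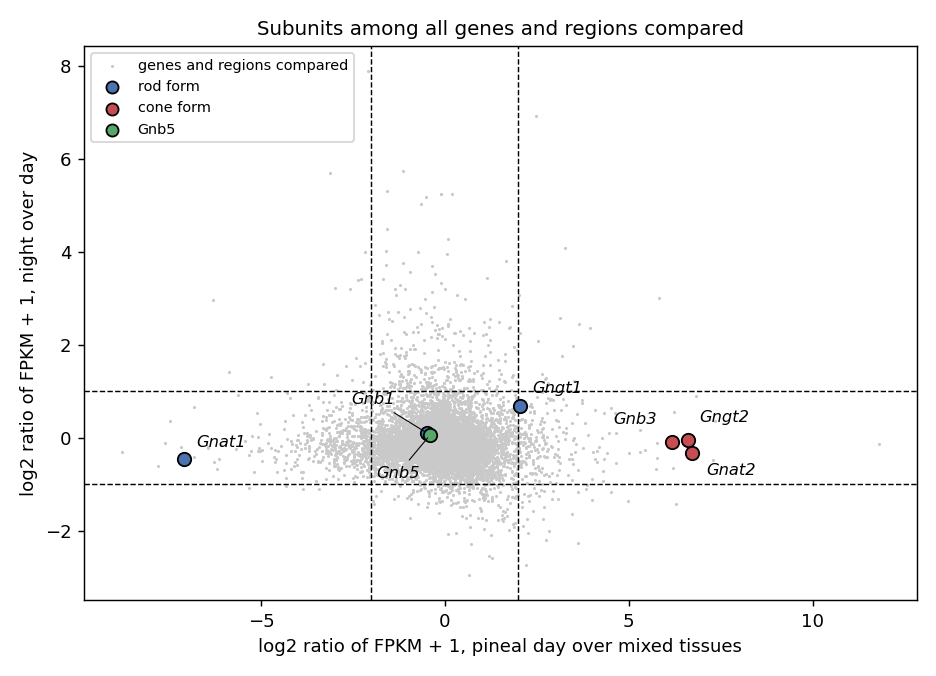
Log2 ratio of FPKM + 1 for pineal day over mixed tissues (horizontal) and night over day (vertical), with all genes and regions compared in grey, rod forms in blue, cone forms in red and Gnb5 in green. Dashed lines mark 4-fold and 2-fold. The 3 cone forms lie together between 6.16 and 6.72 on the horizontal axis, Gnat1 lies at -7.10, and no subunit passes 2-fold on the vertical axis.

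The 3 cone genes had patterns close to one another. Likeness was measured as the distance between centred log2(FPKM + 1) values over the 3 libraries, among 1337 other genes and regions with at least 50 FPKM in their highest library. The nearest to Gnat2 were Gngt2 (distance 0.20) and Gnb3 (0.40), followed by the nicotinic receptor subunit gene Chrnb4 (0.41). The nearest to Gngt2 were Gnat2, Gnb3 (0.39) and Pde6c, the catalytic subunit of cone phosphodiesterase (0.44). The nearest to Gnb3 were Opn1sw, the short-wavelength cone opsin (0.34), Gngt2 and Gnat2. These distances rest on 3 libraries and describe levels in them.

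Gngt1 had other neighbours in pattern. The nearest were Prickle2, a planar cell polarity gene (0.12), Slc6a6, the taurine transporter gene (0.17), and Rabepk (0.19). Slc6a6 was at 124 FPKM by day, 238 by night and 32.4 in the mixed tissues. The genes nearest to Gnat1 were Tnnc2 of fast skeletal muscle (0.19), Cyp11a1 of steroid synthesis (0.24) and Hp, the plasma protein haptoglobin (0.25), all low in the gland and high in the pool.

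Set among all G protein subunits measured, the transducin forms made up most of each class in the gland. Of 16 alpha genes, Gnat2 held 79.7% of the summed FPKM by day and 73.9% by night, followed by Gnai2, an inhibitory alpha subunit (10.4% and 11.5%). The alpha total includes Gnas, the stimulatory alpha subunit, whose 2 entries summed to 0.122 FPKM by day, so its part is uncertain. Of 5 beta genes, Gnb3 held 93.1% by day and 92.8% by night, followed by Gnb2 at 3.41% and 3.29%. Of the 9 gamma genes found, Gngt1 and Gngt2 together held 93.4% by day and 95.1% by night. In the mixed tissues the leading subunits were Gnat1 (48.4% of alpha), Gnb5 (36.3% of beta) and Gngt1 (59.7% of gamma). The beta shares include Gnb1, whose values are uncertain, so the lead of Gnb5 in the mixed tissues is uncertain too. The gamma shares leave out Gng2, Gng4 and Gng12, which matched no symbol.

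**Figure D4:**
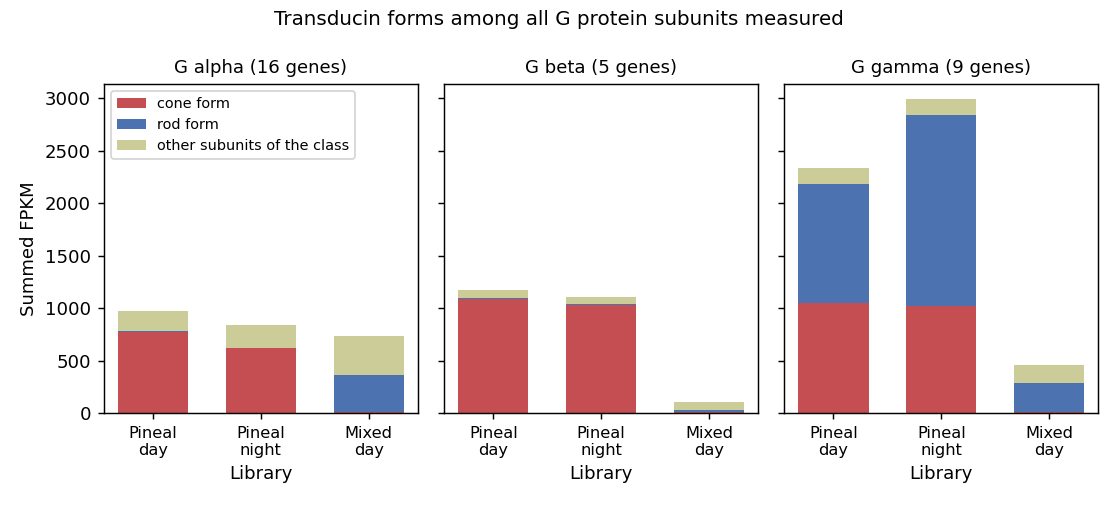
Summed FPKM of the G protein alpha, beta and gamma genes measured, stacked as cone form (red), rod form (blue) and all other subunits of the class (tan), in the 3 libraries. In the gland the rod and cone forms hold 74.0% to 95.1% of each class, and the gamma total grows from 2334 FPKM by day to 2990 by night.

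The 3 classes were unequal in level. The rod and cone forms summed to 778 FPKM for alpha, 1097 for beta and 2181 for gamma by day, and to 619, 1037 and 2845 by night. Gamma was thus 2.80 times alpha by day and 4.60 times by night, and beta 1.41 and 1.68 times alpha. Among the cone forms alone the levels were closer, with Gnb3 1.40 times and Gngt2 1.36 times Gnat2 by day, and 1.66 and 1.64 times by night. FPKM of short transcripts such as those of gamma subunits depends on how the authors' software corrected for fragment length, which was not tested. The 7 genes together held 1.95% of all FPKM by day, 2.12% by night and 0.289% in the mixed tissues.

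The other subunits were mostly at or below their level in the mixed tissues. By day, 0 of the 12 other alpha genes compared exceeded the mixed tissues by 4-fold and 4 fell short of them by as much (median log2 ratio -1.62). The 4 were Gnas, Gnai1 (3.91 FPKM by day and 32.8 in the mixed tissues), Gna12 (11.3 and 48.9) and Gnaz (1.31 and 8.46). At night 0 were higher and 2 lower (median -1.19). Over all genes compared, 13.2% were lower by day and 14.4% at night. Of 7 other gamma genes, 0 were higher and 3 lower by day (median -0.65) and at night (median -0.98), namely Gng3, Gng7 and Gng8. Gng13, a gamma subunit of taste cells and ON bipolar cells, was at 98.8 FPKM by day, 100.5 by night and 32.5 in the mixed tissues (log2 ratio by day 1.57). Gnb2, Gnb4 and Gnb2l1, which encodes a scaffold protein of related fold and is not counted in the beta class above, were within 4-fold. Between night and day, Gnaz was the 1 of 10 other alpha genes past 2-fold (4.10 by night and 1.31 by day, log2 1.14). Of 5 other gamma genes, 0 were past it. The shares over all genes compared were 4.18% higher and 2.11% lower.

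Gnat2, Gnat1 and Gngt1 each lie near another G protein gene in the genome, and these genes had different levels. On rn4, Gnat2 (chr2:203652354-203661377) lies 6897 bp from Gnai3, with 0 other entries between them. Gnai3 was at 24.6 FPKM by day, 39.2 by night and 26.5 in the mixed tissues. Gnat1 (chr8:112925418-112930154) lies 42770 bp from Gnai2, with 1 other entry, Slc38a3, between them. Gnai2 was at 102, 96.6 and 103. Gngt1 (chr4:28831171-28834156) lies 13750 bp from Gng11, which an unnamed region overlaps. Gng11 was at 10.6, 5.39 and 11.6. These 3 genes lay within 4-fold of the mixed tissues by day, with log2 ratios of -0.10, -0.02 and -0.12. The spans of the 7 genes overlapped no other entry of the tables, and the closest was Abi3, 277 bp from Gngt2 (chr10:84554318-84557459). Gnb3 spans chr4:160957524-160963226, Gnb1 chr5:172341135-172386772 and Gnb5 chr8:80128787-80169627.

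Gnb5 was at 29.8 FPKM by day, 31.2 by night and 39.9 in the mixed tissues. Its partners of the R7 RGS family, which return the alpha subunit to its resting state, were measured beside it. Rgs9, the photoreceptor member, was at 82.1 FPKM by day, 72.6 by night and 16.1 in the mixed tissues (log2 ratio by day 2.29). Rgs7 was at 50.9, 36.2 and 15.3, and Rgs11 at 5.43, 4.44 and 5.33. The membrane anchors of these complexes went opposite ways between day and night. Rgs9bp, the anchor of Rgs9 in photoreceptors, was at 13.4 FPKM by day and 2.81 by night (log2 -1.92), while Rgs7bp, the anchor in neurons, was at 11.8 by day and 36.1 by night (log2 1.53).

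Further partners bind the subunits directly. Pdc, phosducin, which holds the beta-gamma dimer, was at 440 FPKM by day, 235 by night and 159 in the mixed tissues. Unc119, which binds the lipid tail of transducin alpha, was at 234, 168 and 70.6. Pdcl, which helps assemble beta-gamma dimers, was at 6.71, 3.84 and 2.94. Of the 15 partners compared, 1 passed 2-fold on the night side (Rgs7bp), 2 on the day side (Rgs9bp and Gpsm2, at 0.622 by night and 2.74 by day) and 12 within 2-fold, with a median log2 ratio of -0.18. Against the mixed tissues by day, 1 of 15 was higher by 4-fold or more (Rgs9), 0 lower and 14 within. The median log2 ratio was 0.48. The shares over all genes compared were 4.18% higher and 2.11% lower for night over day. For the gland by day over the mixed tissues they were 2.29% higher and 13.2% lower.

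**Figure D5:**
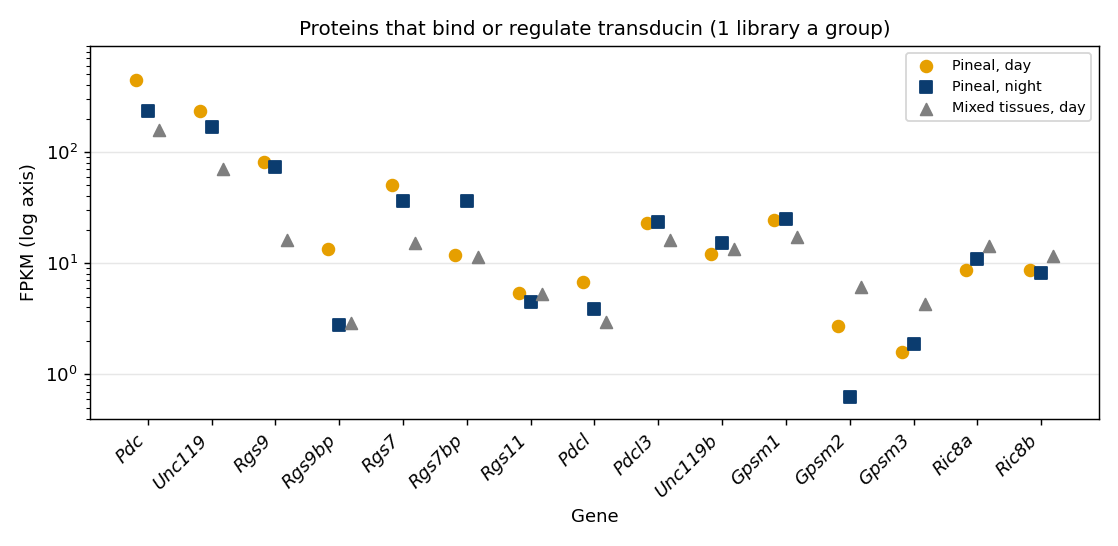
FPKM (log axis) of 15 genes whose proteins bind or regulate transducin or other G protein subunits, in the pineal day (circles), pineal night (squares) and mixed-tissue (triangles) libraries, 1 point per library. Pdc, Unc119, Rgs9 and Rgs7 lie above the mixed tissues in both pineal libraries, and Rgs9bp and Rgs7bp differ between night and day in opposite directions.

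Other phototransduction genes with rod and cone forms were measured beside the G protein. Pde6c and Opn1sw, 2 of the 6 cone counterparts compared, exceeded the mixed tissues by 4-fold or more by day (156 FPKM and 1.10 for the first, 112 and 1.08 for the second), and 1 was lower, Opn1mw, listed at 0 in the gland and at 3.57 in the mixed tissues. At night 2 were higher and 2 lower, the added gene being Pde6h, whose entry also carries the alias Pde6g (1.22 FPKM by day, 0.263 by night and 7.46 in the mixed tissues). Whether that entry holds the cone or the rod form is not settled, so its place among the cone counterparts is uncertain. Of 6 rod counterparts, 2 were lower, Pde6a and Pde6b, and 1 was higher, Cngb1, a subunit of the rod cGMP-gated channel (55.7 and 9.02), and at night the counts were the same. Over all genes compared, 2.29% were higher and 13.2% lower by day, and 3.09% and 14.4% at night. Sag, the rod arrestin, was at 158 FPKM by day, 337 by night and 311 in the mixed tissues. Like Gngt1, Cngb1 was a rod gene at least 4-fold higher in the gland than in the mixed tissues. Sag was abundant in the gland but within 4-fold of the mixed tissues, with log2 ratios of -0.97 by day and 0.12 by night. Between night and day, Sag was at least 2-fold higher by night, while the 5 other rod and 5 cone counterparts compared were within 2-fold. The shares over all genes compared were 4.18% higher and 2.11% lower by night.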

How the data were processed

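The values are FPKM computed by the authors and deposited as 1 table of the series and 1 file per sample, which were equal in 51267 of 51267 values. Per the submitters' processing notes, TopHat 1.3.1 and Cufflinks 1.2.0 were used on build rn4. Not given in the sources used here are the options, the filters and the rule for multi-mapping reads. Per the labels' protocols, poly(A) RNA was fragmented, primed at random and sequenced as paired ends, 1 lane per library.

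Here, entries of 1 symbol were summed, and entries without a symbol were kept apart. Starts were converted to count from 1. Depth was estimated from 1192 olfactory receptor models with spans of 800 to 1100 bp, as the median of the lowest group of values above 0, taken as 1 fragment. It rests on 4 models by night. A floor of 3 fragments on 1 kb is 0.343 FPKM by day, 0.567 by night and 0.316 in the mixed tissues. Ratio and call functions were tested on simulated data. Analyses used Python 3.11.15, pandas 2.3.3, NumPy 2.4.6 and SciPy 1.17.1.

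The genes, lists and alternatives were chosen with earlier results of these data known. Genes named besides the members come from the lists, the 3 nearest in pattern, or, for neighbours in the genome, were chosen after their values were seen. Gnb1l, Gng2, Gng4, Gng12, Rgs6, Pde6g, Cngb3, Nr2e3, Aldh1l1, Kdr and Rbfox3 matched no symbol and were not analysed here. A further gene of the lists is not reported here.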

Additional observations from a re-analysis of the deposited data

How the results depend on the processing

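Each result was recomputed under 6 alternatives: a pseudocount of 0.1 or 5, no filter on low values or a filter at FPKM 5, scaling of the libraries by the median ratio, and the highest entry of each symbol in place of the sum. The counts recomputed were those of members higher or lower in each comparison and of classes with the rod form higher in each library. They were equal to the reported values in 54 of 54 recomputations, but part of these could not differ. Each setting treats both forms of a pair alike within a library, which fixes the class counts and the sign of the rod over cone ratios. Every member has 1 entry and was already compared, so the highest entry and the absence of a filter could not change the member counts. Of 179 recomputed log2 ratios, 2 changed sign, those of Gnb3 and Gngt2 between night and day, both under scaling by the median ratio. No other setting could change a sign. A pseudocount keeps the order of 2 values, a filter alters no value, and every member has 1 entry. Most of the 179 signs were therefore fixed in advance. The log2 ratio of Gngt1 ranged from 0.69 to 0.80 for night over day and from 2.03 to 2.10 for pineal day over mixed tissues. That of Gnat1 for pineal day over mixed tissues ranged from -7.71 to -5.77. No paired analysis was possible because each group has 1 library. For the same reason no library could be left out. Depth limits Gnat1 in the gland most.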

Other observations

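Beside Gngt1 the tables list 2 unnamed regions, chosen here after their values were seen. PFAR182 (chr4:28841000-28867500, rn4) starts 6843 bp from Gngt1 and contains the span of Gng11. It was at 3.27 FPKM by day, 0.231 by night and 0.434 in the mixed tissues (log2 ratio of night over day -1.80). PFAR183 (chr4:28873300-28966800) was at 1.14, 0.303 and 0.103, and it contains the span of Bet1, which was at 20.1, 14.4 and 20.8. Gng11, inside the first region, was also lower by night (log2 -0.86), whereas Gngt1 was higher (0.70). The libraries are not stated to keep strand. How far fragments of Gng11 were counted in PFAR182, or those of Bet1 in PFAR183, is not known and was not tested.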
